A study of Homo sapiens with 12 samples.

Results

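The comparison described here set A375 cells treated with the PPARγ agonist rosiglitazone (RGZ) together with the PPARγ antagonist T0070907 (T007) against A375 cells given vehicle. A375 is an established human melanoma cell line. The combination cells received 5 µM RGZ and 2 µM T007, the control cells received the vehicle, and RNA was taken after 24 h. Both conditions were run in 3 independent experiments, and each combination library was set against the vehicle library of the same experiment. The 6 libraries were chosen by their labels from the 12 libraries of the series, whose other 6 came from cells given RGZ alone or T007 alone. All 23705 genes of the count table were considered, of which 13522 had enough counts to be tested. Each library pooled the RNA of an experiment's technical replicates, and all came from 1 cell line.

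PPARγ is a nuclear receptor that binds DNA as a partner of the retinoid X receptors and is best known for driving fat storage and fatty acid handling. An agonist such as RGZ occupies its ligand pocket and favours binding of coactivators, and target genes for lipid droplet coats, fatty acid carriers and fatty acid oxidation are then transcribed. T007 modifies the same pocket covalently and favours corepressors. The comparison of both compounds with vehicle asks what is left of the transcript response when agonist and antagonist are present together.

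The vehicle libraries held 8319455 to 8687191 counts and the combination libraries 8426908 to 9471903 counts, and 3 counts corresponded to 0.316 to 0.371 CPM, the count scaled to the size of its library. At this depth genes below about 1 CPM rest on few reads. Of the 28 melanocyte lineage genes listed, TYR, TRPM1, IRF4 and ABCB5 had no count in any of the 6 libraries, and the summed level of the list was 709 to 938 CPM in vehicle and 708 to 918 CPM in the combination. Summed markers of other cell types overlapped between the groups. Within experiments 1, 2 and 3, the 5 tested keratinocyte and epithelial markers had median log2 differences of 0.48, 0.027 and 0.068, with 2 of 5 higher in all 3. Their fitted median was 0.16, and 0.040 after the length correction described below. Fibroblast markers summed to 19.2 to 46.6 CPM in vehicle and 18.9 to 37.5 CPM in the combination, endothelial markers to 6.59 to 8.83 and 4.57 to 7.50 CPM, leukocyte markers to 199 to 466 and 202 to 496 CPM, and keratinocyte and epithelial markers to 449.9 to 839 and 487 to 805 CPM. KRT1, TP63, DSG3, MS4A1 and ERG were among the markers at 0. Others were well expressed over the 6 libraries, with KRT18 at 307 to 629 CPM and HLA-DRA at 116 to 439 CPM. Of the melanocyte lineage genes, SOX10 was at 208 to 425 CPM, CDK2 at 149 to 163 CPM and MITF at 31.4 to 57.8 CPM. Fewer cells of a kind and less RNA per cell cannot be told apart in bulk RNA.

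No gene passed an adjusted p of 0.05 in edgeR's quasi-likelihood test with the experiment as a block, that is 0 of 13522 genes or 0%, and the smallest adjusted p was 0.0959. At an unadjusted p under 0.05 the test gave 2868 genes (21.2%), 1461 higher (10.8%) and 1407 lower (10.4%). At an adjusted p under 0.1 there were 156 genes (1.15%), 77 higher (0.569%) and 79 lower (0.584%). DESeq2 with the same block called 161 genes at 0.05 (1.19%) and limma-voom called 0. After each library was corrected for transcript length, edgeR called 13 genes (0.0961%), among them SCD, NQO1, GSN and TKT on the higher side and TXNIP, PSAT1 and ASNS on the lower. The differences were small, with a median size of 0.13 on the log2 scale and a 99th percentile of 0.77. For 10581 genes (78.3%) the 95% interval from limma-voom lay within a 1.5-fold change in either direction, and for 12596 genes (93.2%) within a 2-fold change. Because no gene passed the test, the values below are given as levels and differences, and a gene or list is called higher or lower only in the sense of its measured value.

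The 3 experiments did not give the same profile. The difference between combination and vehicle, taken gene by gene within an experiment, was higher in all 3 experiments for 2182 genes (16.1%) and lower in all 3 for 2315 genes (17.1%). Counts of list members higher or lower in all 3 experiments are to be read beside these shares. Every combination library lay above every vehicle library for 767 genes (5.67%) and below for 888 genes (6.57%). Across genes, which are not independent replicates, the differences of experiments 1 and 3 correlated with r = 0.354, whereas the correlation was -0.0186 for experiments 1 and 2 and -0.00562 for experiments 2 and 3. Experiment 1 had 1711 genes beyond 1.5-fold, experiment 3 had 769 and experiment 2 had 589. Without experiment 2, 1330 genes were called higher (9.89%) and 1311 lower (9.75%) at an adjusted p under 0.05, so the call count rested on that experiment.

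Experiments 1 and 3 shared a gradient with transcript length that experiment 2 lacked. Spearman's rho between the difference and the length of the longest annotated transcript was -0.513 in experiment 1, 0.0536 in experiment 2 and -0.422 in experiment 3. The shortest 10% of genes, with a median length of 1163 bases, had median log2 differences of 0.35, -0.017 and 0.19 in experiments 1, 2 and 3. The longest 10%, with a median of 9570 bases, had -0.36, 0.0024 and -0.17. Libraries of both conditions deviated. The shortest 10% minus the longest 10% was 0.41, 0.039 and 0.22 in the combination libraries and -0.30, 0.070 and -0.14 in the vehicle libraries, each as a log2 deviation from the mean of all 12 libraries. The rho with GC content was 0.409, -0.142 and 0.154. Each library was therefore also corrected for length, a step added after the data had been seen, or for GC content. For most lists below whose median a correction moved by more than 1.5 times, the corrected median is given. With the length correction 13.7% of all tested genes were higher and 16.8% lower in all 3 experiments.

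**Figure D1:**
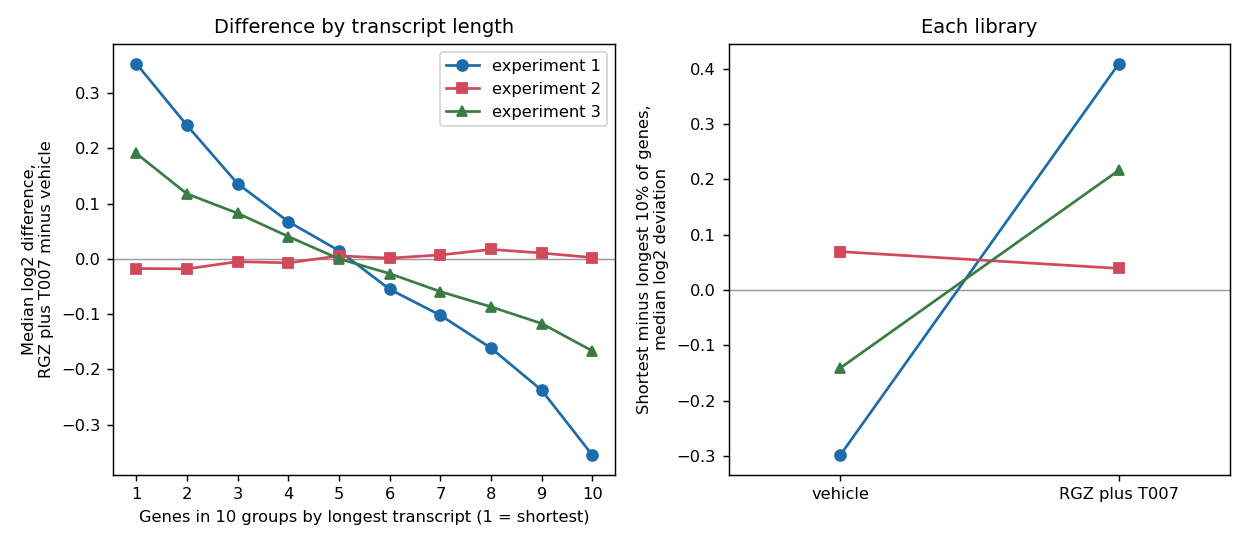
Left, median log2 difference between RGZ plus T007 and vehicle for 10 equal groups of genes ordered by transcript length, 1 line per experiment. Right, shortest minus longest 10% of genes in each library, as the median log2 deviation from the mean of all 12 libraries, with lines joining the 2 libraries of an experiment. Experiments 1 and 3 slope from 0.35 and 0.19 in the shortest 10% to -0.36 and -0.17 in the longest, and experiment 2 stays near 0.

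PPAR target genes were slightly higher in the combination. Of 45 listed genes 37 passed the filter on low counts, which drew on all 12 libraries, and 14 of 37 (37.8%) were higher in all 3 experiments and 2 of 37 (5.41%) lower, against 16.1% and 17.1% of all tested genes. Their median log2 difference was 0.13, with 0.037, 0.12 and 0.15 in experiments 1, 2 and 3, against a median of -0.0012 over all tested genes. Of the experiment medians that of experiment 1 was the lowest. After the length correction the fitted median was 0.087 with 10 of 37 higher in all 3 experiments. The corrected medians of experiments 1, 2 and 3 were -0.044, 0.12 and 0.10, so experiment 1 then lay below 0.

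FABP4, a cytosolic fatty acid carrier and the classical PPARγ target, had 9, 9 and 25 counts in the combination libraries of experiments 1, 2 and 3 and 1 count in each vehicle library. The groups did not overlap. Scaled for library size, the summed ratio was 13.7, with a counting interval of 4.38 to 68.9 that covers counting error only. FABP4 passed the filter through the libraries given RGZ alone and was not tested with only the 6 libraries or with at least 10 counts in every library, so no p is given for it. ANGPTL4, a secreted inhibitor of lipoprotein lipase, was at 5.68, 10.8 and 41.6 CPM in the combination and 3.41, 5.24 and 8.35 CPM in vehicle. It was higher in each experiment by 0.70, 1.02 and 2.29 on the log2 scale, and the fitted difference was 1.72 ± 0.41 (SE, adjusted p = 0.0989). The library of experiment 3 stood far above the other two combination libraries, and the groups overlapped. PLIN2, which coats lipid droplets, was at 362, 454 and 737 CPM against 365, 389 and 405 CPM, with log2 differences of -0.015, 0.22 and 0.86. Its relative PLIN4 differed by 0.15, 0.42 and 1.21 and ACSL3, which activates fatty acids at the droplet surface, by 0.021, 0.18 and 0.36 in experiments 1, 2 and 3. In ANGPTL4, PLIN2, PLIN4 and ACSL3 the widest difference was in experiment 3.

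CPT1A, which admits fatty acids to mitochondria for oxidation, did not share this. Its level was 47.2, 59.001 and 65.9 CPM in the combination and 60.5, 56.996 and 69.5 CPM in vehicle, and the fitted log2 difference was -0.12 ± 0.086 (adjusted p = 0.428). The same vehicle libraries served the single compounds, for which the fitted values were 0.78 for RGZ alone and -0.78 for T007 alone. ANGPTL4 had 6.32 for RGZ alone and -3.16 for T007 alone. TXNIP, an alpha-arrestin that restrains glucose uptake and binds thioredoxin, was at 15.8, 16.7 and 10.9 CPM against 23.2, 21.9 and 15.8 CPM. TXNIP was lower in each experiment, with log2 differences of -0.54, -0.38 and -0.52 and a fitted value of -0.49 ± 0.10 (adjusted p = 0.0983) beside -0.91 for RGZ alone and 0.26 for T007 alone. Its relative ARRDC4 differed by -0.73, -0.78 and -0.075 at 1.79 to 3.63 CPM.

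**Figure D2:**
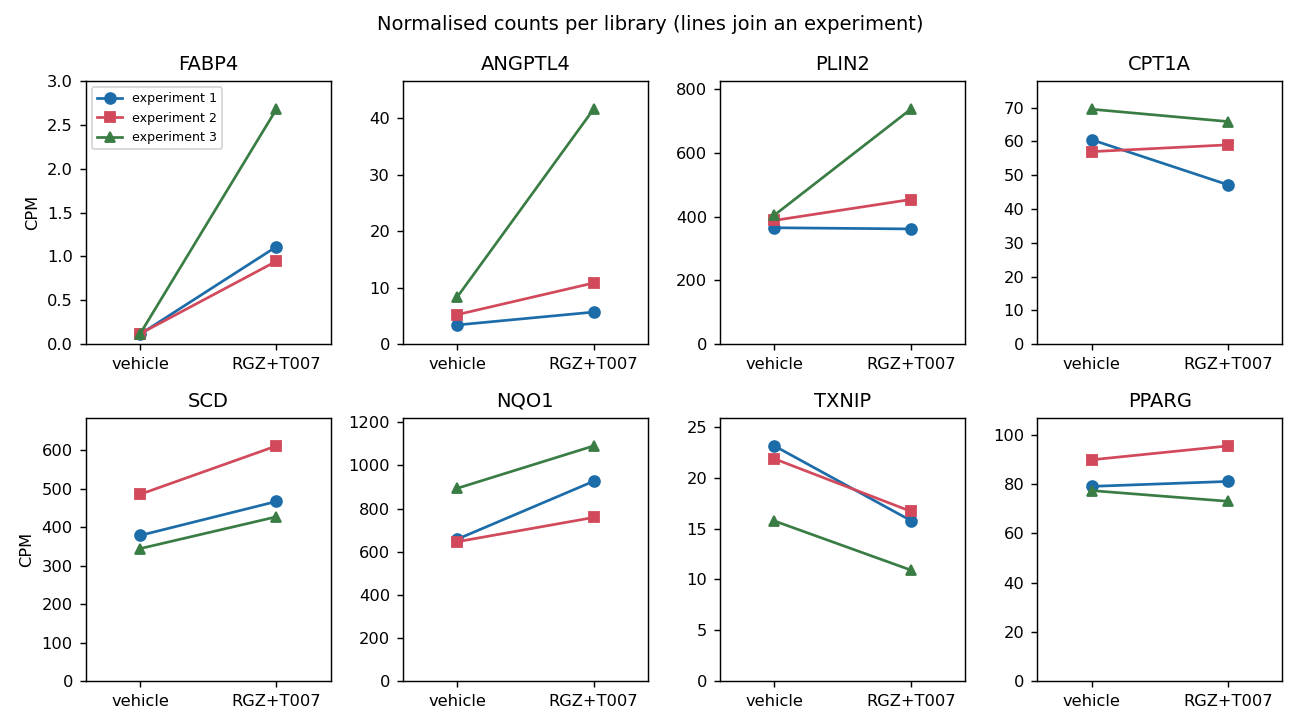
CPM of 8 genes in the vehicle and RGZ plus T007 libraries, with a line joining the 2 libraries of each experiment and axes that start at 0. FABP4, ANGPTL4, SCD and NQO1 are higher in each experiment, TXNIP is lower in each, and PLIN2, CPT1A and PPARG do not move the same way in all 3.

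The receptors themselves differed little. PPARG was at 81.2, 95.6 and 73.1 CPM in the combination and 79.1, 89.96 and 77.4 CPM in vehicle, with a fitted difference of 0.016 ± 0.064. PPARD had -0.14 ± 0.093, and the retinoid X receptors RXRA, RXRB and RXRG had 0.040 ± 0.082, -0.064 ± 0.067 and -0.078 ± 0.19. None of the 6 tested receptor genes had an unadjusted p under 0.05, and their median was -0.032, -0.084 after the GC correction and -0.092 after the length correction. PPAR coregulators were lower, with a median of -0.20 and 10 of 19 (52.6%) lower in all 3 experiments. EP300, a histone acetyltransferase, was at 43.7, 50.8 and 46.2 CPM against 72.4, 53.2 and 64.6 CPM. MED1, the Mediator subunit that contacts nuclear receptors, had differences of -0.62, -0.091 and -0.28, and the corepressor NCOR1 had -0.55, -0.089 and -0.23. These are long transcripts, with a median of 7939 bases. After the length correction their median was -0.073, with 8 of 19 lower in all 3 experiments.

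Sterol synthesis genes were higher in each of the 3 experiments by their median. Among tested genes of cholesterol synthesis and uptake, 16 of 27 (59.3%) were higher in all 3 experiments and 0 were lower in all 3. The median was 0.18, and 0.24, 0.11 and 0.12 in experiments 1, 2 and 3. Without experiment 1 the fitted median was 0.098. DHCR7, which catalyses the last step to cholesterol, was at 74.98, 80.6 and 62.2 CPM in the combination and 57.7, 65.6 and 48.8 CPM in vehicle. Its differences of 0.38, 0.30 and 0.35 hardly varied between experiments (fitted 0.34 ± 0.064, adjusted p = 0.0983), although the groups overlapped because experiments differed in level. FDFT1, which commits farnesyl units to squalene, differed by 0.35, 0.17 and 0.31, and MVD of the mevalonate pathway by 0.62, 0.29 and 0.29. INSIG1, which holds the sterol sensor in the endoplasmic reticulum, differed by 0.47, 0.26 and 0.21. After the length correction 14 of 27 members were higher in all 3 experiments, the fitted median was 0.11 and the experiment medians were 0.19, 0.10 and 0.057, so that of experiment 3 fell the most.

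LXR target genes had a fitted median of 0.22 and medians of 0.10, 0.093 and 0.17 in experiments 1, 2 and 3, with 5 of 14 higher in all 3. Their transcripts are short, with a median of 2764 bases. After the length correction the fitted median was 0.13, with 3 of 14 higher in all 3, and after a correction for GC content it was 0.14. Experiment 1 did not keep its median, as the corrected values of experiments 1, 2 and 3 were 0.0019, 0.10 and 0.17 for length and -0.027, 0.12 and 0.13 for GC content. The member with the smallest p, though not the widest difference, was SCD, the desaturase that makes monounsaturated fatty acids. It was at 467, 612 and 427 CPM against 379, 486 and 344 CPM. SCD differed by 0.30, 0.33 and 0.31 in the 3 experiments, a fitted value of 0.32 ± 0.056 (adjusted p = 0.0959). SREBF1, the transcription factor of fatty acid synthesis, differed by 0.50, 0.12 and 0.14, and NPC2, which moves cholesterol out of lysosomes, by 0.30, 0.068 and 0.45. The wider list of fatty acid synthesis and desaturation was near 0, with a median of 0.0042, and 0.037 after the length correction and -0.011 after the GC correction. On its lower side HACD2, an enzyme of fatty acid elongation, differed by -0.79, -0.079 and -1.08.

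Mitochondrial beta-oxidation had medians of 0.064, 0.00023 and 0.13 in experiments 1, 2 and 3, with 8 of 24 higher in all 3. The fitted median was 0.045, and 0.095 without experiment 2. Peroxisomal proteins had 0.028. After the length correction the fitted medians were 0.023 and 0.0058, and after the GC correction that of peroxisomal proteins was 0.016. ECHS1 and ECI2, both enzymes of fatty acid breakdown in mitochondria, differed by 0.37, 0.012 and 0.20 and by 0.45, 0.054 and 0.34. Triglyceride and phospholipid synthesis had 0.023, and 0.057 after the length correction, with PEMT, which methylates phosphatidylethanolamine, at 0.48, 0.17 and 0.18 and the lipin LPIN2 at -0.31, -0.23 and -0.10. Lipid droplet proteins and lipases had no clear direction. Their fitted median of 0.063 stood beside medians of -0.0036, 0.0057 and 0.018 in experiments 1, 2 and 3, and it turned to -0.0018 after the GC correction and -0.027 after the length correction. In that list 4 of 18 members (22.2%) were higher and 5 of 18 (27.8%) lower in all 3 experiments, against 16.1% and 17.1% of all tested genes.

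NRF2 and antioxidant genes were higher, with 17 of 37 (45.9%) higher in all 3 experiments and a median of 0.19. These transcripts are short, with a median of 2391 bases. The median followed the order of the length gradient, with 0.36, 0.053 and 0.19 in experiments 1, 2 and 3, and it was 0.069 after the length correction, with 12 of 37 higher in all 3. NQO1, a quinone reductase, was at 926, 758 and 1091 CPM against 658, 646 and 894 CPM. It was higher in each experiment by 0.49, 0.23 and 0.29 (fitted 0.34 ± 0.060, adjusted p = 0.0959). HMOX1, which degrades haem, was at 39.7, 29.2 and 25.1 CPM against 22.6, 21.3 and 18.8 CPM, and its groups did not overlap. Ferritin light chain FTL differed by 0.75, 0.18 and 0.22. In the pentose phosphate pathway, which supplies NADPH, TKT differed by 0.46, 0.15 and 0.14, but the list, with a median length of 2152 bases, had a median of -0.0023 after the length correction, from 0.11 before it.

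Ribosomal proteins and respiratory chain subunits were higher by their medians in experiments 1 and 3 and near 0 in experiment 2. The 77 tested cytosolic ribosomal protein genes had medians of 0.46, -0.037 and 0.25 in experiments 1, 2 and 3. The count higher in all 3 was 19 of 77 (24.7%), although 65 (84.4%) had an unadjusted p under 0.05 and a higher level. Over all tested genes that share was 10.8%. RPL36 was at 982, 752 and 824 CPM against 572, 751 and 629 CPM, and RPLP1 of the ribosomal stalk at 1121, 882 and 1005 CPM against 709, 870.2 and 807 CPM. In both genes the experiment 2 libraries lay close together. Subunits of complex I, the first enzyme of the respiratory chain, had 0.48, -0.029 and 0.25, and those of complexes III, IV and V had 0.43, -0.013 and 0.23. NDUFS8 differed by 0.82, 0.12 and 0.23, UQCRQ by 0.54, 0.040 and 0.39 and COX4I1 by 0.58, 0.034 and 0.24. Proteasome subunits had 0.28, -0.012 and 0.17, with PSMB4 at 0.44, 0.031 and 0.25.

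These transcripts are short, with median lengths of 1857, 1333, 1709.5 and 2393 bases against 3655 bases over all tested genes. After the length correction the fitted medians were 0.11 for ribosomal proteins, 0.088 for complex I, 0.094 for complexes III, IV and V and 0.051 for the proteasome, from 0.21, 0.24, 0.20 and 0.15. Without experiment 2, 70 of 77 ribosomal protein genes and 27 of 37 complex I genes were called higher at an adjusted p under 0.05, against the 9.89% given above for all genes. The same fit called 9 of 27 genes of the cholesterol list and 4 of 37 PPAR target genes higher.

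**Figure D3:**
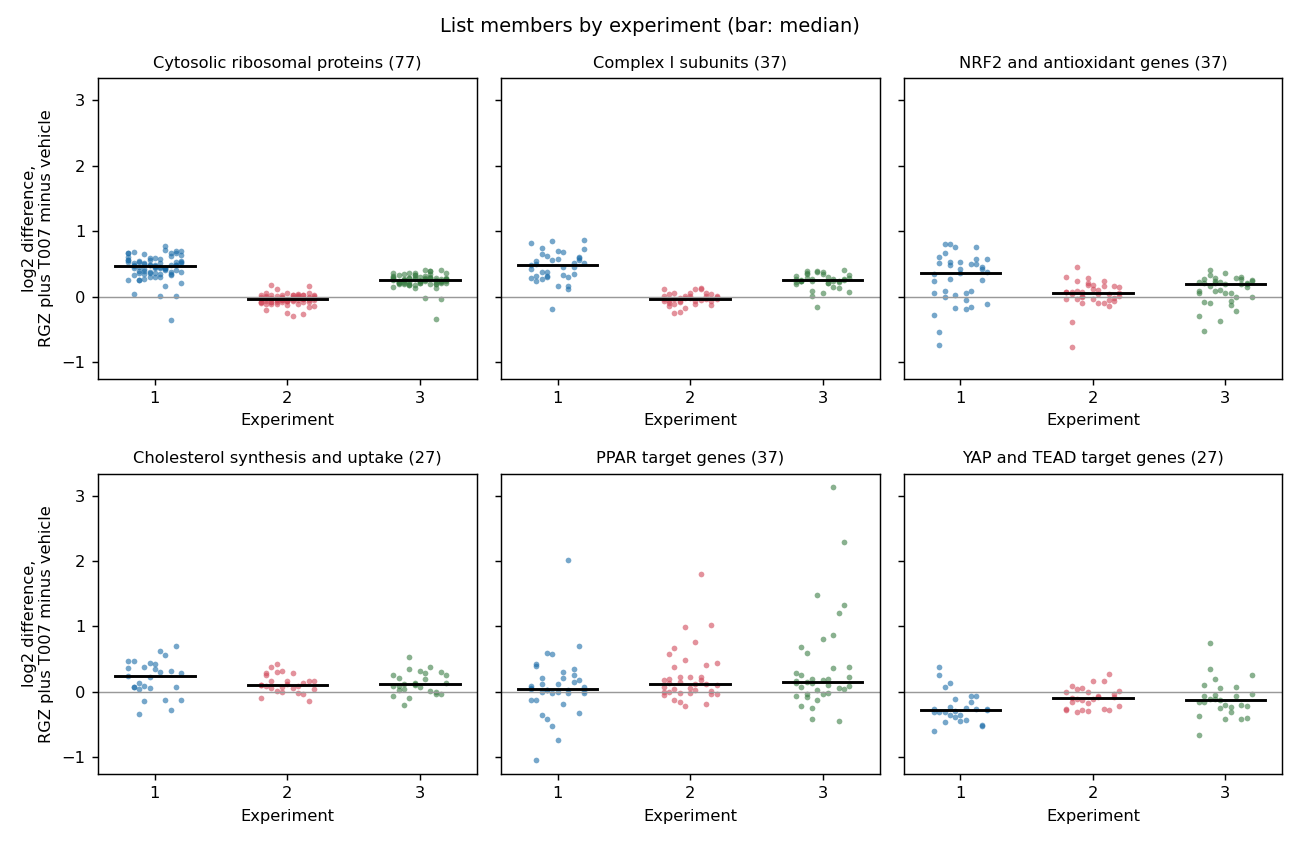
Log2 difference between RGZ plus T007 and vehicle in each experiment for every tested member of 6 gene lists, 1 point per gene, with the median as a bar. Ribosomal protein and complex I genes sit above 0 in experiments 1 and 3 and around 0 in experiment 2, whereas the medians of the cholesterol and PPAR target lists are above 0, and that of the YAP and TEAD list below 0, in all 3.

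The SNHG genes, noncoding hosts of small nucleolar RNAs, had experiment medians like those of the ribosomal protein genes and were examined because of it. Of 18 tested, 11 (61.1%) were higher in all 3 experiments, and the family's medians were 0.46, 0.023 and 0.21. Their fitted median was 0.25, and 0.12 after the length correction, with 9 higher in all 3. SNHG8 differed by 0.57, 0.11 and 0.33, SNHG32 by 0.34, 0.10 and 0.28 and SNHG3 by 0.31, 0.043 and 0.19, while SNHG4 was lower in each experiment, at -0.61, -0.013 and -0.11. Both groups are known for transcripts that begin with a run of pyrimidines. In RefSeq sequence around the annotated starts (GRCh38.p14), a run of at least 6 pyrimidines beginning within 5 bases of the start was found in 77.4% of 62 ribosomal protein genes and 66.7% of 15 SNHG genes, against 15.1% of 10758 tested genes with such sequence and 9.38% of 32 complex I genes. The 30 bases around the start are shown for the ribosomal protein and SNHG genes with the smallest p that had such a run, 5′ to 3′, with the run in capitals.
RPL36, chr19:5690280-5690309, plus strand: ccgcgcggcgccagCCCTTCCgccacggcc
RPLP1, chr15:69452803-69452832, plus strand: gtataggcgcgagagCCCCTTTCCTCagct
RPS21, chr20:62387088-62387117, plus strand: ggtgactagctgCTTCCTTTCTCTCTCgcg
RPL18, chr19:48619164-48619193, minus strand: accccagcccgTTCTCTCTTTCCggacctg
SNHG8, chr4:118278747-118278776, plus strand: aaggcctcggCCTTTCacattcgggaagcg
SNHG32, chr6:31834901-31834930, plus strand: ctcgccattttagTTCTTTTTgcgaagtgg
SNHG3, chr1:28505928-28505957, plus strand: cctcagtgagtttctgaTTCTCTaactgcg

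The other 1564 genes with such a run had medians of 0.00074, 0.013 and 0.0044 in experiments 1, 2 and 3, and complex I genes, of which 3 of 32 had one, had a fitted median of 0.24 beside 0.21 for the ribosomal protein genes. Of the 3 definitions of a run that were looked at, a run of at least 8 gave 72.6% of ribosomal protein genes, 26.7% of SNHG genes and 7.95% of all, and a run of at least 5 from the start itself gave 67.7%, 26.7% and 5.62%. The share in SNHG genes depended on the definition. In windows from 250 bases before to 50 after the start, 3 motifs were also searched on both strands. The sterol regulatory element core TCACNCCAC was found in 1 of 21 cholesterol genes (SREBF2) and in 1.04% of all windows, and in 0 of the 12 such genes higher in all 3 experiments. The antioxidant response element core TGACNNNGC was found in 14.8% of 27 NRF2 and antioxidant genes and in 15.1% of all windows. The direct repeat bound by PPARs was found in 0 of 30 PPAR target genes and in 0.0279% of all windows. Only 3 of 10758 windows held this repeat, so its absence from 30 genes is uninformative. The sterol core, at 1.04% of windows, was likewise too rare for a list of 21 genes to be judged. Sites outside the windows or with a different sequence were not searched.

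YAP and TEAD target genes were lower in the combination. Among tested members, 15 of 27 (55.6%) were lower in all 3 experiments and 1 of 27 higher, and the medians were -0.28, -0.088 and -0.13. These transcripts are longer than most, with a median of 4737 bases, and after the length correction 15 of 27 were lower in all 3 with a fitted median of -0.14, from -0.17. AJUBA, a scaffold of cell junctions, was at 97.3, 100.4 and 75.8 CPM against 117, 120.1 and 84.7 CPM and differed by -0.26, -0.26 and -0.16. F3, the initiator of blood coagulation, differed by -0.30, -0.27 and -0.66 and the phosphatase PTPN14 by -0.52, -0.084 and -0.39. CCN2 and CCN1, secreted matrix proteins and standard readouts of YAP, differed by -0.059, -0.27 and -0.20 and by -0.061, -0.26 and -0.068, and their widest differences were in experiment 2.

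TGF-beta and SMAD targets differed in direction between experiments, with medians of 0.064, -0.14 and -0.0071 in experiments 1, 2 and 3 and 6 of 22 lower in all 3. Their fitted median was -0.057, and 0.019 without experiment 2. After the GC correction it was -0.12 with 9 of 22 lower in all 3. No experiment median was above 0 with either correction, at -0.15, -0.12 and -0.054 for GC content and -0.0049, -0.15 and -0.031 for length. Among matrix genes, FN1, which encodes fibronectin, was at 148, 59.9 and 257 CPM in the combination and 223, 65.4 and 352 CPM in vehicle, with differences of -0.59, -0.13 and -0.46 (fitted -0.41 ± 0.091, adjusted p = 0.0983). Its level varied more between experiments than between conditions. COL1A1 differed by -0.091, -0.42 and -0.84 and COL12A1 by -0.66, -0.15 and -0.28. Of the collagens and laminins, 11 of 33 (33.3%) were lower and 4 of 33 (12.1%) higher in all 3 experiments, against 17.1% and 16.1% of all tested genes. The list's median of -0.046 depended on the correction, with -0.0025 after the one for length and -0.12 after the one for GC content. Integrins had -0.36, 0.058 and 0.0050 in experiments 1, 2 and 3, with ITGB1 at -0.49, -0.040 and -0.23. ITGA11, a collagen receptor subunit, differed by -1.08, -1.24 and -0.47, and ITGAE lay on the other side at 0.50, 0.072 and 0.23. ITGA11 was tested in only 15 of the alternative settings given below, against 18 for ITGB1, and passed an adjusted p of 0.05 in none. The fitted integrin median of -0.085 became -0.020 and -0.13 after the same corrections. Genes of the dedifferentiated melanoma state had a median of -0.12, with the receptor kinase AXL at -0.25, -0.072 and -0.24 and the aldo-keto reductase AKR1C3 on the other side at 0.30, 0.44 and 0.99. Melanocyte lineage genes had a median of 0.011, -0.0031 after the length correction and -0.040 after the GC correction. S100A1 and S100B, calcium-binding proteins, differed by 0.47, 0.089 and 0.52 and by 0.57, 0.11 and 0.23. Of the RAB GTPases of melanosome traffic, RAB38 was lower in each experiment, at -0.29, -0.20 and -0.39, and RAB27A higher, at 0.074, 0.31 and 0.58.

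Among growth genes, CDK6, a kinase that drives entry into S phase, was at 192, 183 and 197 CPM against 253, 200.02 and 242 CPM, and its groups did not overlap (fitted -0.27 ± 0.056, adjusted p = 0.0983). Its longest transcript is long, at 11612 bases, and its fitted difference ran from -0.35 to -0.11 over the alternative settings given below. CCND1, its cyclin partner, differed by -0.21, -0.16 and -0.14. CDKN1A, a CDK inhibitor and p53 target, differed by 0.54, 0.064 and 0.14. Mitosis genes had a median of -0.042, with 13 of 48 (27.1%) lower in all 3, and after the length correction -0.10 with 18 of 48. MKI67, the proliferation marker Ki-67, was at 389, 397 and 395 CPM against 582, 416 and 497 CPM, and CENPF of the kinetochore differed by -0.51, -0.032 and -0.27. Over the same alternatives the fitted difference ran from -0.45 to -0.15 for MKI67 and from -0.40 to -0.12 for CENPF. PTTG1, which encodes securin, lay on the other side at 0.40, 0.093 and 0.26. S-phase and DNA replication genes had a median of 0.011, -0.011 after the length correction and -0.0083 after the GC correction. Before correction 9 of 49 (18.4%) were higher and 10 of 49 (20.4%) lower in all 3, near the 16.1% and 17.1% of all tested genes.

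MAPK output genes had a median of -0.062, with 8 of 24 (33.3%) lower in all 3 experiments, ETV5 at -0.15, -0.13 and -0.27 and SPRED1, a brake on RAS, at -0.33, -0.052 and -0.15. ATF4 and amino acid response genes had a fitted median of -0.084, with 8 of 30 lower in all 3. The experiments disagreed, with medians of 0.029, -0.058 and -0.077 in experiments 1, 2 and 3 and 17 of 30 members higher in experiment 1. After the GC correction they did not, with medians of -0.083, -0.033 and -0.12 and 13 of 30 lower in all 3, whereas the length correction left 0.011, -0.063 and -0.10. Of the members lower in all 3, PSAT1 of serine synthesis differed by -0.18, -0.11 and -0.21, ASNS of asparagine synthesis by -0.033, -0.27 and -0.19 and the amino acid transporter SLC7A5 by -0.13, -0.092 and -0.24. Hypoxia response genes had -0.10, with 10 of 27 lower in all 3. HIF1A, the oxygen-regulated factor itself, was at 118, 160.2 and 131 CPM against 211, 148 and 167 CPM and moved in opposite directions in experiments 1 and 2. Circadian clock genes had -0.14, with 9 of 17 lower in all 3 and PER3 at -1.10, -0.64 and -0.43.

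Glycolysis and lactate (0.015), the aminoacyl-tRNA synthetases (0.012), serine, glycine and one-carbon metabolism (-0.0035) and the endoplasmic reticulum chaperones (0.016) had fitted medians close to that of all genes. Experiment 1 was apart for glycolysis, with 0.10, -0.020 and 0.0097 in experiments 1, 2 and 3. Without experiment 2 the 4 medians were 0.057, 0.028, -0.049 and 0.036. Of the glycolysis genes, 5 of 24 (20.8%) had an unadjusted p under 0.05 and a higher level, against 10.8% of all tested genes. TPI1 differed by 0.34, 0.029 and 0.21 and ENO1 by 0.29, -0.027 and 0.18. The length correction gave 0.011, -0.015, -0.019 and -0.0054, and the GC correction 0.0071, -0.0025, -0.042 and 0.012. NF-kB target genes had 0.031, -0.011 after the length correction and -0.015 after the GC correction. Their experiments disagreed, with medians of 0.14, -0.040 and 0.047, and the fitted median was 0.11 without experiment 2. The cytokine IL1A was at 2.10, 5.78 and 5.14 CPM against 1.93, 2.62 and 2.59 CPM. Interferon-stimulated genes had 0.045, and -0.0024 after the length correction, with IFI35 at 0.53, 0.22 and 0.50 and the kinase EIF2AK2 on the other side at -0.60, -0.10 and -0.25. The reference genes YWHAZ and B2M had fitted differences of -0.018 ± 0.049 and 0.11 ± 0.055.

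Leaving out experiment 2 moved further list medians by more than 1.5 times. Ribosomal proteins then had 0.35, complex I 0.37, complexes III, IV and V 0.33, the proteasome 0.22, NRF2 and antioxidant genes 0.28, PPAR coregulators -0.31 and integrins -0.14. These 7 lists kept their direction and lay farther from 0. Leaving out experiment 1 instead brought ribosomal proteins closer to 0, at 0.11. Fatty acid synthesis turned to -0.021, and peroxisomal proteins and S-phase genes had 0.017 and 0.0050.

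Other metabolic and organelle lists had small differences. The citric acid cycle had 0.048, with 8 of 21 higher in all 3 experiments and 0 lower, but 0.0025 after the length correction, and its malate dehydrogenase MDH2 differed by 0.49, -0.0095 and 0.15. Ribosome biogenesis factors had 0.057, and 0.016 after the length correction, with POLR1A, the large subunit of RNA polymerase I, lower at -0.60, -0.19 and -0.37. Cytosolic heat shock proteins had 0.048, 0.0027 after the length correction and 0.082 without experiment 2. Lysosomal proteins had 0.049, 0.017 and 0.0037 after the length and GC corrections and 0.089 without experiment 2, and autophagy genes had 0.042, -0.012 after the GC correction and 0.068 without experiment 2. RB1CC1, a scaffold that starts autophagy, was lower at -0.59, -0.17 and -0.20. Pyruvate dehydrogenase and its kinases had -0.084, 0.051 and 0.055 in experiments 1, 2 and 3 and no shared direction.

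Nuclear receptors outside the PPAR and RXR groups had a median of -0.10, with 10 of 27 (37.04%) lower in all 3 experiments and 0 higher. The median was -0.029 after the length correction and -0.16 without experiment 2. THRA, a thyroid hormone receptor, differed by -0.34, -0.16 and -0.42, and NR4A2, an immediate early receptor, by -0.93, -0.29 and -0.39. Axon guidance genes, which are long at 5846 bases, had -0.053, -0.021 after the length correction, -0.12 after the GC correction and -0.13 without experiment 2, with SLIT2 at -0.64, -0.15 and -0.50. Actin cytoskeleton regulators had a median of 0.058, with -0.0030 and 0.024 after the length and GC corrections and 0.088 without experiment 2. Of them 10 of 42 (23.8%) were higher and 11 of 42 (26.2%) lower in all 3 experiments, against 16.1% and 17.1% of all tested genes. ARPC4 of the Arp2/3 complex was higher at 0.56, 0.12 and 0.24, and the formin DIAPH1 lower at -0.27, -0.061 and -0.19.

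The sign of the fitted median depended on a correction or on experiment 2 for immediate early genes (0.038), the EGF family (0.0039), matrix proteases and inhibitors (-0.011), the BCL2 family (-0.037) and cyclins D with CDK4/6 and CDK inhibitors (0.054). Among them TIMP1, an inhibitor of matrix proteases, differed by 0.53, 0.016 and 0.41, and BCL2L11, which promotes apoptosis, by -0.28, -0.47 and -0.27. Targets of p53 had 0.044, 0.013 and 0.026 after the length and GC corrections and 0.011 without experiment 2. Of them 4 of 26 (15.4%) were higher and 4 of 26 (15.4%) lower in all 3, near the 16.1% and 17.1% of all tested genes. Alpha-arrestins and glucose sensing genes had -0.0069, and -0.044 and -0.084 after the length and GC corrections.

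**Figure D4:**
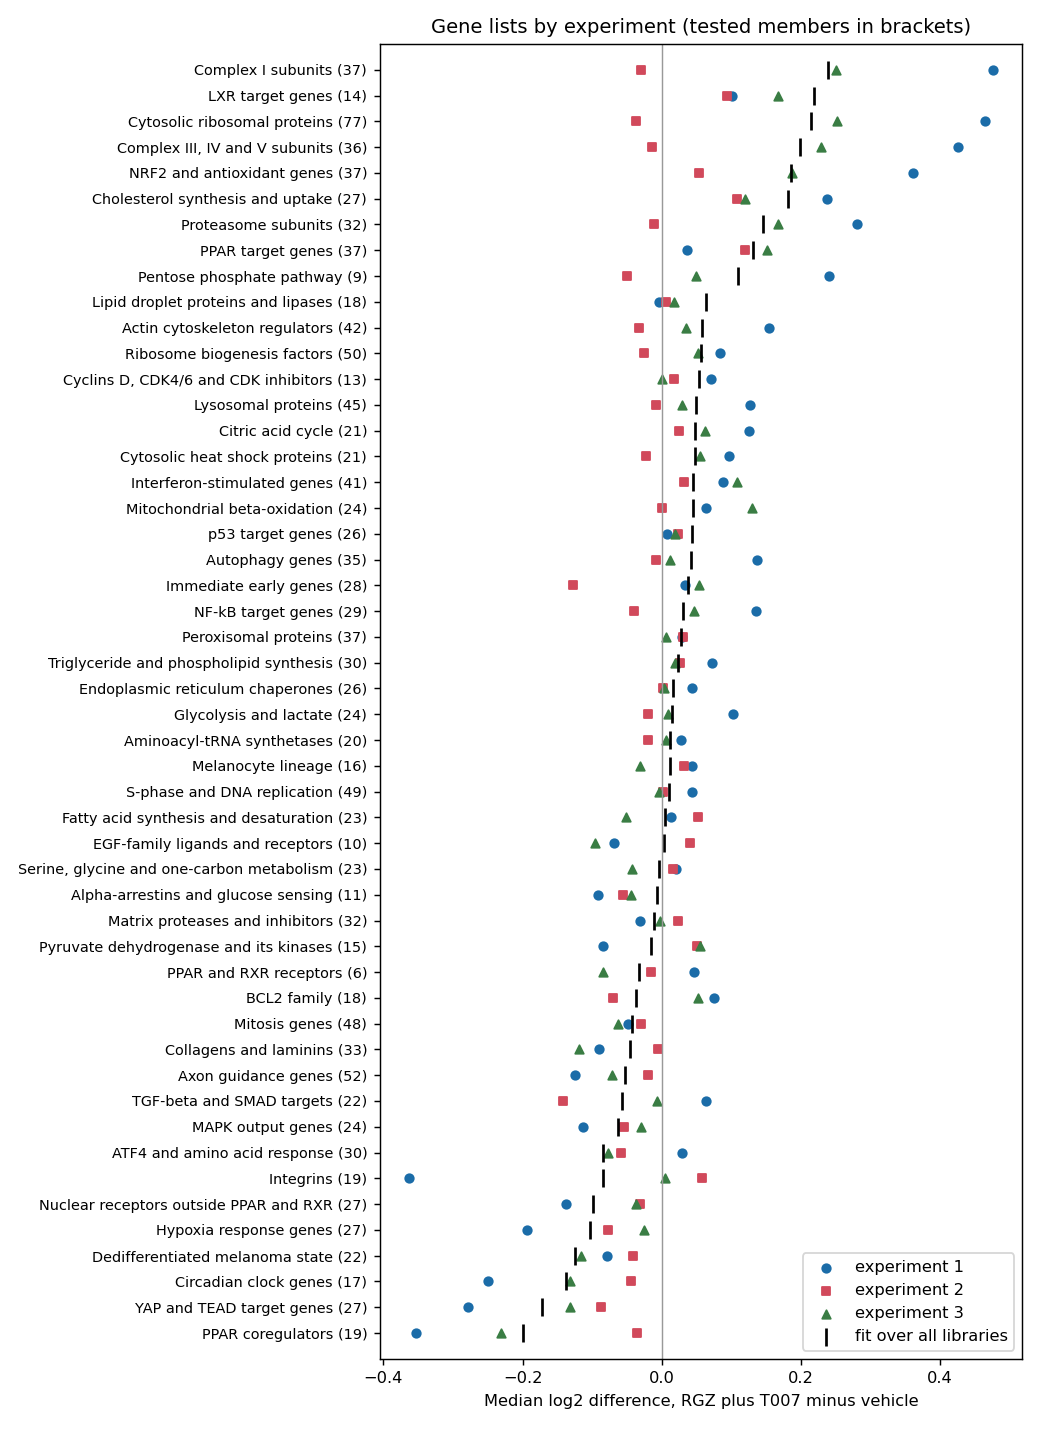
Median log2 difference between RGZ plus T007 and vehicle for 50 gene lists, in each experiment (coloured points) and in the fit over all libraries (black bars), with the number of tested members in brackets. The 3 experiments lie apart for ribosomal protein, respiratory chain and integrin genes and closer together for the LXR, cholesterol and PPAR target lists.

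Of the genes with the smallest p that were higher in all 3 experiments, PNKD led, at 48.5, 54.3 and 48.3 CPM against 33.7, 40.8 and 38.4 CPM (fitted 0.42 ± 0.070, adjusted p = 0.0959). NQO1, SCD, HMOX1 and DHCR7 followed among the first 6, with GSN, the actin-severing protein gelsolin, at 194, 176 and 332 CPM against 144, 157 and 245 CPM. FXYD3, a regulator of the sodium pump, differed by 0.38, 0.42 and 0.45. DPM3, TMEM147 and PTMS, all short, differed by 0.80, 0.26 and 0.51, by 0.59, 0.15 and 0.48 and by 0.79, 0.20 and 0.26. On the lower side the leading gene was ZNF827 at 5.31, 6.10 and 7.50 CPM against 12.6, 8.81 and 12.4 CPM, followed by ZNF518A, CDK6, CCDC88A, APC, ATP11A, TXNIP, KDM6B, SHPRH and EFR3A, whose fitted differences ran from -0.88 for SHPRH to -0.27 for CDK6. Except for TXNIP at 2926 bases, the longest transcripts of these 10 genes ran from 5438 to 11660 bases.

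The widest differences among genes with an unadjusted p under 0.05, a mean level of 1 CPM or more and an unchanged sign over the experiments were ANGPTL4 and, at low levels, ZIC5 at 2.35, 1.998 and 0.857 CPM against 0.795, 0.714 and 0.588 CPM, PLXDC1, ZNF818P and CEP83-DT. On the lower side they included PGM5P2, TRPM8, FRRS1 and GUSBP4. FRRS1, a ferric reductase, was at 1.36, 1.68 and 2.46 CPM against 4.09, 3.81 and 4.001 CPM and its groups did not overlap. ZNF818P, PGM5P2 and GUSBP4 are pseudogenes or near-copies, so their counts may be shared with other genes.

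Families formed by the letters that open the gene symbol differed in transcript length between both ends of the order. Highest were NDUFA (0.25), DHRS (0.25), SNHG (0.25), NDUFB (0.25), HSD (0.23) and PSMB (0.23), with median lengths of 1065 to 2175 bases. Lowest were PPM (-0.18), AKAP (-0.18), MYO (-0.17), DOCK (-0.16), PTPN (-0.15) and KLHL (-0.14), with median lengths of 5183 to 7997 bases. Myosins had medians of -0.32, -0.076 and -0.16 in experiments 1, 2 and 3, with 8 of 18 lower in all 3 and 0 higher. Corrected for length, the medians of the 6 highest families ran from 0.080 for HSD to 0.16 for DHRS, and those of the 6 lowest from -0.13 for PPM to -0.033 for DOCK. The corrected myosin medians were -0.013, -0.081 and -0.031, with 5 of 18 lower in all 3.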

How the data were processed

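RNA of A375 cells was sequenced after 24 h in 3 independent experiments. The authors deposited raw counts per gene, as whole numbers with no normalization. The build was hg19 per the submitters' processing notes, and the aligner and annotation are not given in the sources used here. Of 23705 gene numbers, 23558 were matched to a symbol.

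The analysis used R 4.3.3 and edgeR 4.0.16 (TMM, filterByExpr, quasi-likelihood test, Benjamini-Hochberg adjustment) on all 12 libraries, with condition and experiment as terms. The pairing comes from the experiment numbers in the labels. Deviations of same-numbered libraries from their group means correlated with r = 0.0793, 0.629 and 0.672 in experiments 1, 2 and 3. P-values rest on the spread left after the condition and experiment terms, pooled over all 12 libraries, which include those given RGZ alone or T007 alone. CPM are TMM-scaled, and log2 differences within an experiment used a prior count of 2. The SE is the size of the log2 difference divided by the square root of F. Intervals of single genes came from limma 3.58.1. Alternatives also used DESeq2 1.42.0. Corrections for GC content or transcript length smoothed each library with a span of 0.3, and length was known for 98.4% of tested genes. Replicates differed by more than sampling noise. The tests were tried on simulated data.

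Genes, 54 lists and comparisons were chosen with earlier results of these data known; the length correction, motifs and pyrimidine runs were added after values were seen. Named were genes the study names, the 10 smallest p each way at 1 CPM or more with the same direction in all 3 experiments, the 5 widest differences each way, up to 4 members per list and the 6 highest and lowest symbol families; SNHG members were named after their values were seen. Some genes this rule names are not reported here.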

Additional observations from a re-analysis of the deposited data

How the results depend on the processing

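The count of genes called at an adjusted p under 0.05 was 0 in the paired edgeR fit and stayed 0 without the replicate block, with DESeq2's size factors, with limma-voom, with at least 10 counts in every library and with only the 6 libraries compared. It was 161 (93 higher) with DESeq2 and the block, 843 (479 higher) without a filter on low counts, 2 with the GC correction (NQO1 and SCD), 13 with the length correction and 156 at an adjusted p under 0.1; the cause was not tested. Leaving out libraries or experiments gave 0 to 2641 calls, with 2641 without experiment 2, 2594 without its combination library, 873 without its vehicle library and 7 without combination library 1. Genes with an unadjusted p under 0.05 numbered 2868 with the replicate block and 1438 without it, 1472 in the fit of 6 libraries, and 802 (without experiment 1) to 4492 (without experiment 2) when libraries were left out. Genes in the same direction in every experiment numbered 4497, and 6298 to 9547 with 1 experiment left out, where only 2 experiments had to agree. The median of PPAR target genes was 0.13 and ran from 0.087 to 0.14 over all alternatives. Of 53 other list medians, 26 kept their sign under every alternative. That of cholesterol synthesis ran from 0.098 without experiment 1 to 0.20 without combination library 3. That of YAP and TEAD targets ran from -0.21 without experiment 2 to -0.12 without experiment 1. Ribosomal proteins ran from 0.11 without experiment 1 to 0.35 without experiment 2, and complex I from 0.088 with the length correction to 0.37 without experiment 2. Of 224 named genes, 213 kept their sign under every alternative. Of 3997 values of named genes at an alternative, 607 passed an adjusted p of 0.05, 434 of them without a library of experiment 2.

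Among named genes, signs turned for 11, whose differences in the paired fit were between -0.078 (RXRG) and 0.12 (CD14). With the GC correction YWHAZ was at 0.026, RXRA at -0.050 and CD68 at -0.016. With the length correction PPARG was at -0.081, YWHAZ at 0.037, FARSA at -0.0022, LYZ at -0.047, HLA-DRA at -0.14, CD68 at -0.070 and CD14 at -0.013. CDH5 was at 0.026 without the replicate block and 0.0049 with limma-voom. With libraries or experiments left out, the values ran from -0.056 to 0.0049 for YWHAZ, -0.034 to 0.064 for PPARG, -0.015 to 0.14 for RXRA, -0.21 to 0.062 for RXRG, -0.26 to 0.17 for CDH5, -0.082 to 0.12 for LUM, -0.0051 to 0.070 for HLA-DRA, -0.027 to 0.072 for CD68 and -0.43 to 0.51 for CD14. Depth limits genes under about 1 CPM, where 3 counts are 0.316 to 0.371 CPM.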

Other observations

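Long noncoding RNAs as a class had a median log2 difference of 0.055 in the combination against vehicle, with 101 of 517 tested genes (19.5%) higher and 66 (12.8%) lower in all 3 experiments. Protein-coding genes had -0.0018, with 2022 of 12560 (16.1%) higher and 2174 (17.3%) lower. The noncoding transcripts are shorter, with a median length of 2358 bases against 3752 bases. After the length correction their median was -0.0031, with 81 higher (15.7%) and 84 lower (16.2%) in all 3 experiments, and that of protein-coding genes was -0.0084.

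The other 6 libraries of the series also differed along transcript length. The shortest 10% of genes minus the longest 10% was -0.091, 0.14 and 0.035 in the libraries of experiments 1, 2 and 3 treated with RGZ alone, and -0.26, -0.13 and 0.00063 in those treated with T007 alone, as log2 deviations from the mean of all 12 libraries. Cytosolic ribosomal protein genes took 4.59% to 5.41% of counts in vehicle libraries, 5.28% to 6.11% in combination libraries, 4.92% to 5.55% with RGZ alone and 4.63% to 5.38% with T007 alone.

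Besides FABP4, MMP9 and CNN1 were the listed genes with 3 or fewer counts in every library of one condition and more than 3 in every library of the other. MMP9 had 3, 2 and 2 counts in the combination libraries and 5, 5 and 4 in vehicle, a scaled ratio of 0.477 with a counting interval of 0.163 to 1.26. CNN1 had 7, 6 and 4 counts against 1, 3 and 3, a ratio of 2.32 with an interval of 0.914 to 6.61. Both intervals include equal levels.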
